A study of Mus musculus with 18 samples.

Results

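The genes described are the nuclear-encoded subunits of the mitochondrial respiratory chain and of ATP synthase in mouse liver. They were chosen by name, from probe sets with 1 platform gene symbol that starts with Ndufa, Ndufb, Ndufc, Ndufs, Ndufv, Uqcr or Atp5, is Sdha, Sdhb, Sdhc or Sdhd, or is Cox followed by 4 to 8. The rule found 90 of 18193 genes, on 179 probe sets, and the brightest probe set stood for its gene. Complex I had 34 genes, complex II 4, complex III 8, complex IV 19 (with Ndufa4 and Ndufa4l2, which are counted there) and complex V, the ATP synthase, 17. The other 8 carry Ndufaf names and encode complex I assembly factors, which are not subunits. Of the 90 genes, 87 passed the filter on dim probe sets and were tested among 14694 genes. The 3 that failed it were Ndufa4l2, Cox7b2 and Cox8b, all of complex IV. A further 8 names of the same kind, Ndufs6 and Ndufa11 among them, were on probe sets with several symbols and were left out.

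Complexes I and II pass electrons from NADH and succinate to ubiquinone, complex III passes them to cytochrome c, and complex IV passes them to oxygen. Complexes I, III and IV pump protons across the inner mitochondrial membrane, and complex V uses the gradient to make ATP. Most subunits are encoded in the nucleus and a few in mitochondrial DNA, so the complexes are put together from products of both genomes. Hepatocytes are rich in mitochondria, and their respiratory chain takes up the electrons released by fatty acid oxidation.

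Liver RNA was measured on 18 Affymetrix arrays, 3 for each of 6 groups of C57BL/6 mice. Wild type (WT, AIM+/+) mice and AIM-KO (AIM-/-) mice, which lack AIM, a protein made by macrophages, had normal chow, a high-fat diet (HFD) for 12 weeks or HFD for 20 weeks. How the null allele was made is not stated in the labels. The comparisons ask how the liver's transcripts differ with diet within each genotype, with genotype on each diet, and whether the diet effect differs between genotypes. Ages are not given, so time on HFD and age cannot be told apart. The labels call the arrays biological replicates without naming animals, so p-values measure the spread between these arrays. All values are MAS5 intensities. Changes are differences of log2(intensity + 3.3) ± SE from limma with 3 arrays per group, and a gene was called at a Benjamini-Hochberg adjusted p under 0.05 over all 14694 genes. The 12 and 20 week comparisons of a genotype share its chow arrays.

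Cd5l, which encodes AIM, was checked first. It read between 702.6 and 1926.8 on the 9 WT arrays and between 4 and 23.5 on the 9 AIM-KO arrays, so every array matched its genotype label; whether its probe set lies in the deleted part is not given. Xist, which is transcribed in female cells, was high on 4 arrays (2921.6 to 3049.7), namely every 20 week array of AIM-KO and replicate 2 of WT at 20 weeks, and 7.8 to 26.2 on the other 14 arrays. Eif2s3y, a Y-linked gene, read 3.9 to 7.3 on those 4 arrays and 498.4 to 675.1 on the others; the labels give no sex. Diet and these sex-linked differences cannot be told apart in AIM-KO at 20 weeks. RNA integrity can be read from the ratio of the 3' to the 5' probe set of actin, which rises as RNA is degraded. It was 2.25 to 3.06 on 15 arrays and higher on 3 arrays, all WT. These were HFD replicate 2 at 12 weeks (3.79) and HFD replicates 1 and 3 at 20 weeks (3.64 and 4.22).

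Of the hepatocyte markers, none of 11 tested was at 0 on any array. Their summed intensity ranged from 64095 to 75940 on WT chow arrays and from 67305 to 73456 on AIM-KO chow arrays. In AIM-KO at 12 weeks it was 49614 to 54239, below every chow array of that genotype, and in WT at 12 weeks 54231 to 65606. At 20 weeks it was 58074 to 66758 in AIM-KO, again below every AIM-KO chow array, and 60980 to 71734 in WT, overlapping with WT chow. Fewer hepatocytes and less RNA of these markers per hepatocyte cannot be told apart in whole liver. The sums use values as deposited, and the part in them of how the arrays were scaled was not tested.

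The 4 promoters below belong to genes on which the results turn: Ndufs3 of complex I, Sdhb and Sdhd of complex II and Atp5g1 of complex V. Each is the 300 base window from 250 bases before to 50 bases after a transcript start, from RefSeq on GRCm38.p6, written 5′ to 3′ on the strand of the gene. Capitals mark matches to a motif of a factor known from respiratory gene promoters. The motifs, searched on both strands, were NRF1 (GCGCA, any base, then GCGC), ETS factors such as GABP (CCGGAAG), YY1 (AAGATGGCG) and ERR-alpha (TCAAGGTCA). The Ndufs3 window is chr2:90904672-90904971 on the minus strand and the Sdhb window chr4:140961021-140961320 on the plus strand. The Sdhd window is chr9:50603800-50604099 on the minus strand and the Atp5g1 window chr11:96075582-96075881 on the minus strand.
Ndufs3: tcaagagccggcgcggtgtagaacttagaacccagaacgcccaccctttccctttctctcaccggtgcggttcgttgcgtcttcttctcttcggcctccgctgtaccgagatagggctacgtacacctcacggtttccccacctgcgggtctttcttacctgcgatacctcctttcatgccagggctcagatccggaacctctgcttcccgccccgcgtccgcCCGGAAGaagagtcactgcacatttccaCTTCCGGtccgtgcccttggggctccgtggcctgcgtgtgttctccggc
Sdhb: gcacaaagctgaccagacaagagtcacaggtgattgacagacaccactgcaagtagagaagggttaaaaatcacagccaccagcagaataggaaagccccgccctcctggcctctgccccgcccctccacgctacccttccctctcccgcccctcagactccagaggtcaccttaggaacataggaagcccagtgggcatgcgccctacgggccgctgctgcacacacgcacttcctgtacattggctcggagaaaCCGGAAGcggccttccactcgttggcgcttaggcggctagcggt
Sdhd: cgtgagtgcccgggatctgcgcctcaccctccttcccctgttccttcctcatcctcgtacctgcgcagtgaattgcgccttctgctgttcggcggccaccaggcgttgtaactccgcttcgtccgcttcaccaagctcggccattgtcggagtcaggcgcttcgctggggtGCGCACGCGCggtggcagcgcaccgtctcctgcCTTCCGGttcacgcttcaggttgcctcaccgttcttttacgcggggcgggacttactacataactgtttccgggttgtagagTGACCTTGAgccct
Atp5g1: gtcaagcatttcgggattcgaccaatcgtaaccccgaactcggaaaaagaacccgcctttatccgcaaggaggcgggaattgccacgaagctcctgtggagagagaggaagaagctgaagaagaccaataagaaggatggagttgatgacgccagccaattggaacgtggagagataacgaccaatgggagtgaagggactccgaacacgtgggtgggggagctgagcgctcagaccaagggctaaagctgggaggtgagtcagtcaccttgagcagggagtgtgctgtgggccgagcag
The Ndufs3 window held 2 ETS matches, 1 on each strand, and the Sdhb window held 1 on the plus strand of the gene. The Sdhd window held 3 matches that did not overlap, to NRF1, ETS and ERR-alpha, and the Atp5g1 window held 0 matches.

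Windows of this kind were found for 74 of the 90 genes. At least 1 of the 4 motifs was in the windows of 37 of the 74 (50%), against 15.5% of the 27025 genes with a window. The NRF1 motif was present in 17 (23%, against 5.19% of all genes) and the ETS motif in 19 (25.7%, against 9.93%). The YY1 motif was present in 7 (9.46%, against 1.64%) and the ERR-alpha motif in 2 (2.7%, against 0.466%). The windows of these genes had a median GC content of 59%, against 52.7% over all 32851 windows, and no adjustment was made for it. A match describes letters in the window and is not evidence that a factor binds there.

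In AIM-KO liver, at least 1 gene of each of the 5 complexes was called lower after 12 weeks of HFD than on chow. Of the 87 tested genes, 26 were called lower and 0 higher, 29.9% against 18% of all genes called in either direction; over all genes, 6.76% were called lower. The median change was -0.21, against 0.04 over all genes tested, and 74 of 87 estimates were negative. By complex, 9 of 17 genes of complex V, 3 of 4 of complex II, 3 of 8 of complex III, 8 of 34 of complex I and 1 of 16 of complex IV were called lower, with 2 of 8 complex I assembly factors. The 1 call of complex IV is 6.25% of its tested genes, near the 6.76% of all genes called lower. The changes are small, with a median SE of 0.1 for these genes. On 53 genes (60.9%) all 3 HFD arrays lay below all 3 chow arrays, against 14.4% of all genes. The count of 26 became 9 without AIM-KO HFD replicate 2, 11 without AIM-KO chow replicate 3 and 13 without AIM-KO HFD replicate 1.

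This result depended on how the arrays were scaled. Most of these genes are bright on the array: 71 of the 87 were in the brightest decile of tested genes. Over all 1470 genes of that decile the median change in AIM-KO at 12 weeks was -0.12, with 24.8% called lower and 12.1% higher. For the 71 genes the median was -0.24, with 24 called lower and 0 higher. After quantile normalization, which gives all arrays the same distribution, the medians were -0.01 for the decile and -0.06 for the 71 genes. The count of called genes was then 10, all lower and all of them among the 26. Over all 14694 genes, 1460 were then called higher and 941 lower (6.4%). The median over the 87 genes was -0.09. On 31 genes the HFD arrays lay below the chow arrays, against 15.9% of all genes.

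**Figure D1:**
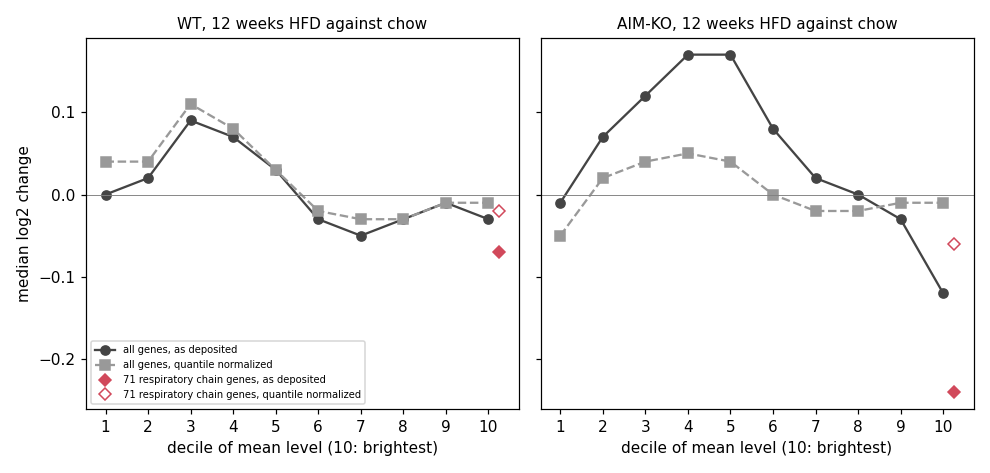
Median log2 change from chow to 12 weeks of HFD (vertical axis) by decile of mean intensity (horizontal axis, 10 the brightest) in WT and AIM-KO. Circles and solid lines are all genes as deposited and squares and dashed lines all genes after quantile normalization; diamonds are the 71 respiratory chain genes of the brightest decile, at -0.24 as deposited and -0.06 after quantile normalization in AIM-KO.

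Complex II, succinate dehydrogenase, is the one complex encoded in the nucleus alone. Sdhb, its iron-sulfur subunit, read 3550.9, 3766.8 and 4203.3 on the AIM-KO chow arrays and 2524, 2533.7 and 3008.9 on the AIM-KO arrays at 12 weeks. All HFD arrays were below all chow arrays, and the change was -0.52 ± 0.10 (adjusted p = 0.0013, limma). Sdhb stayed called in each of 6 fits that left out 1 array and in all 12 other settings, with -0.35 after quantile normalization.

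Sdhd, a membrane anchor subunit, read 1553.5, 1454.8 and 1694.5 on AIM-KO chow and 1108.8, 1121.3 and 1129.2 at 12 weeks. The 3 HFD arrays were close together and well below the chow arrays, and the change was -0.48 ± 0.09 (adjusted p = 0.00071, limma). A dimmer probe set of Sdhd had an estimate of 0.19, and with the mean of both the call was lost (adjusted p = 0.55). Sdha, the flavoprotein subunit, read 2940.5, 3044.3 and 3329 on chow and 2422.2, 2536.3 and 2680.5 at 12 weeks, without overlap, a change of -0.28 ± 0.09 (adjusted p = 0.027, limma). After quantile normalization it was -0.13 and not called.

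Sdhc, the other membrane anchor, was the exception in complex II. It read 761.7, 745.1 and 691.1 on chow and 823.5, 759.9 and 750.4 at 12 weeks. The groups overlapped, and the change was 0.09 ± 0.12 (adjusted p = 0.70, limma). Sdhc was called in 0 of the 10 comparisons.

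Complex I takes electrons from NADH. Ndufs3, a core subunit of its matrix arm, read 2083.6, 2101.8 and 2320.3 on AIM-KO chow and 1566.7, 1519 and 1696.5 at 12 weeks. The groups did not overlap, and the change was -0.44 ± 0.09 (adjusted p = 0.0020, limma). It was called in each of the 6 fits without 1 array and in all 12 other settings.

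Ndufs8, an iron-sulfur core subunit, read 2469.8, 2499 and 2684.1 on chow and 1986.5, 1714.8 and 2004.2 at 12 weeks, again without overlap. Its change was -0.43 ± 0.13 (adjusted p = 0.027, limma), and the call was lost after quantile normalization (adjusted p = 0.069). Ndufb9, an accessory subunit of the membrane arm, read 3884.7, 4018 and 4727.8 on chow and 3131.1, 3003.5 and 3410.1 at 12 weeks. The change was -0.40 ± 0.10 (adjusted p = 0.0064, limma), and it too missed the threshold after quantile normalization (adjusted p = 0.066). The other 5 called complex I genes were Ndufb10, Ndufb11, Ndufs1, Ndufa1 and Ndufv1, of which Ndufb11 and Ndufv1 are named after their values were seen. Over all 8, changes ran from -0.44 to -0.25 and adjusted p from 0.002 to 0.046.

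Of the 8 complex I assembly factors, 2 were called, and the median over the 8 was -0.10. Ndufaf6 read 268.9, 297.1 and 294.9 on AIM-KO chow and 152.8, 167.2 and 195.2 at 12 weeks. No HFD array reached the lowest chow array, and the change was -0.74 ± 0.14 (adjusted p = 0.0010, limma). Ndufaf4 read 593, 669.6 and 873.9 on chow and 438.6, 426.8 and 482 at 12 weeks, a change of -0.64 ± 0.14 (adjusted p = 0.0033, limma). Both stayed called in every one of the 6 fits without 1 array and the 12 other settings. The other 6 were not called.

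In complex III the called genes were Uqcr11, Uqcrh and Uqcrfs1. Uqcrfs1, the Rieske iron-sulfur protein, read 2599.2, 2602 and 3004.6 on AIM-KO chow and 2090.4, 2137.7 and 2330.5 at 12 weeks. The groups did not overlap, and the change was -0.32 ± 0.08 (adjusted p = 0.012, limma). Uqcr11, a small accessory subunit, changed by -0.33 ± 0.09 (adjusted p = 0.018, limma), and Uqcrh, the hinge protein, by -0.32 ± 0.10 (adjusted p = 0.025, limma). None of the 3 was called after quantile normalization, where adjusted p was 0.094 for Uqcr11, 0.078 for Uqcrfs1 and 0.14 for Uqcrh. Uqcrb, the brightest of complex III, read 9067.3, 9510.6 and 10544.3 on chow and 8257.4, 7693.8 and 8048.2 at 12 weeks, without overlap, and was not called (-0.28 ± 0.11, adjusted p = 0.10, limma). Cyc1, a catalytic subunit of complex III that the naming rule does not reach, read 3036.3, 3202.8 and 3381.4 on chow and 2451.3, 2355.9 and 2555.4 at 12 weeks, a change of -0.38 ± 0.09 (adjusted p = 0.0077, limma).

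Complex IV, cytochrome c oxidase, had the fewest calls. Cox5a, a nuclear-encoded subunit, read 6514.4, 6504.2 and 7423.1 on AIM-KO chow and 5638.7, 5432.9 and 5773.4 at 12 weeks. The groups did not overlap, and the change was -0.28 ± 0.08 (adjusted p = 0.028, limma). After quantile normalization it was -0.02 (adjusted p = 0.91). Cox6a1, the brightest of complex IV and the widespread form of its subunit, read 7201.6, 7940.9 and 7929.8 on chow and 6809.5, 6251.3 and 6294.6 at 12 weeks, without overlap, and was not called (-0.25 ± 0.11, adjusted p = 0.12, limma). The median over the 16 tested genes of complex IV was -0.20, with 14 of 16 negative.

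Complex V had the highest count. Atp5g1, one of the genes for subunit c of the membrane rotor, read 1991.6, 2012.9 and 2161 on AIM-KO chow and 1377.6, 1232.7 and 1465.2 at 12 weeks. The gap between the groups was wider than the spread within either, and the change was -0.60 ± 0.15 (adjusted p = 0.0094, limma). The call was kept in all 12 other settings and lost without AIM-KO HFD replicate 2 at 12 weeks (adjusted p = 0.052).

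Atp5c1, the gamma subunit of the rotor shaft, read 4473.5, 4861.6 and 5461.2 on chow and 3548.5, 3595.2 and 3919.7 at 12 weeks. The groups did not overlap; the change was -0.42 ± 0.10 (adjusted p = 0.0069, limma), and -0.18 after quantile normalization, where it was not called. Atp5o, which links the catalytic head to the peripheral stalk, read 1796.3, 1675.6 and 1904.9 on chow and 1308.7, 1368 and 1601.6 at 12 weeks, a change of -0.33 ± 0.09 (adjusted p = 0.011, limma). Atp5g2, another gene for subunit c, changed by -0.33 (adjusted p = 0.0088, limma), but the estimate of its other probe set was 0.49. Atp5pb, a peripheral stalk subunit and the brightest of complex V, read 6363.7, 6511.4 and 7212.2 on chow and 5899.9, 5854.1 and 6057.6 at 12 weeks, without overlap, and was not called (-0.17 ± 0.08, adjusted p = 0.18, limma). Atp5k, Atp5l, Atp5h, Atp5j and Atp5j2 made up the 9 called genes, the last 3 named after their values were seen, and all 17 genes of the complex had negative estimates.

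**Figure D2:**
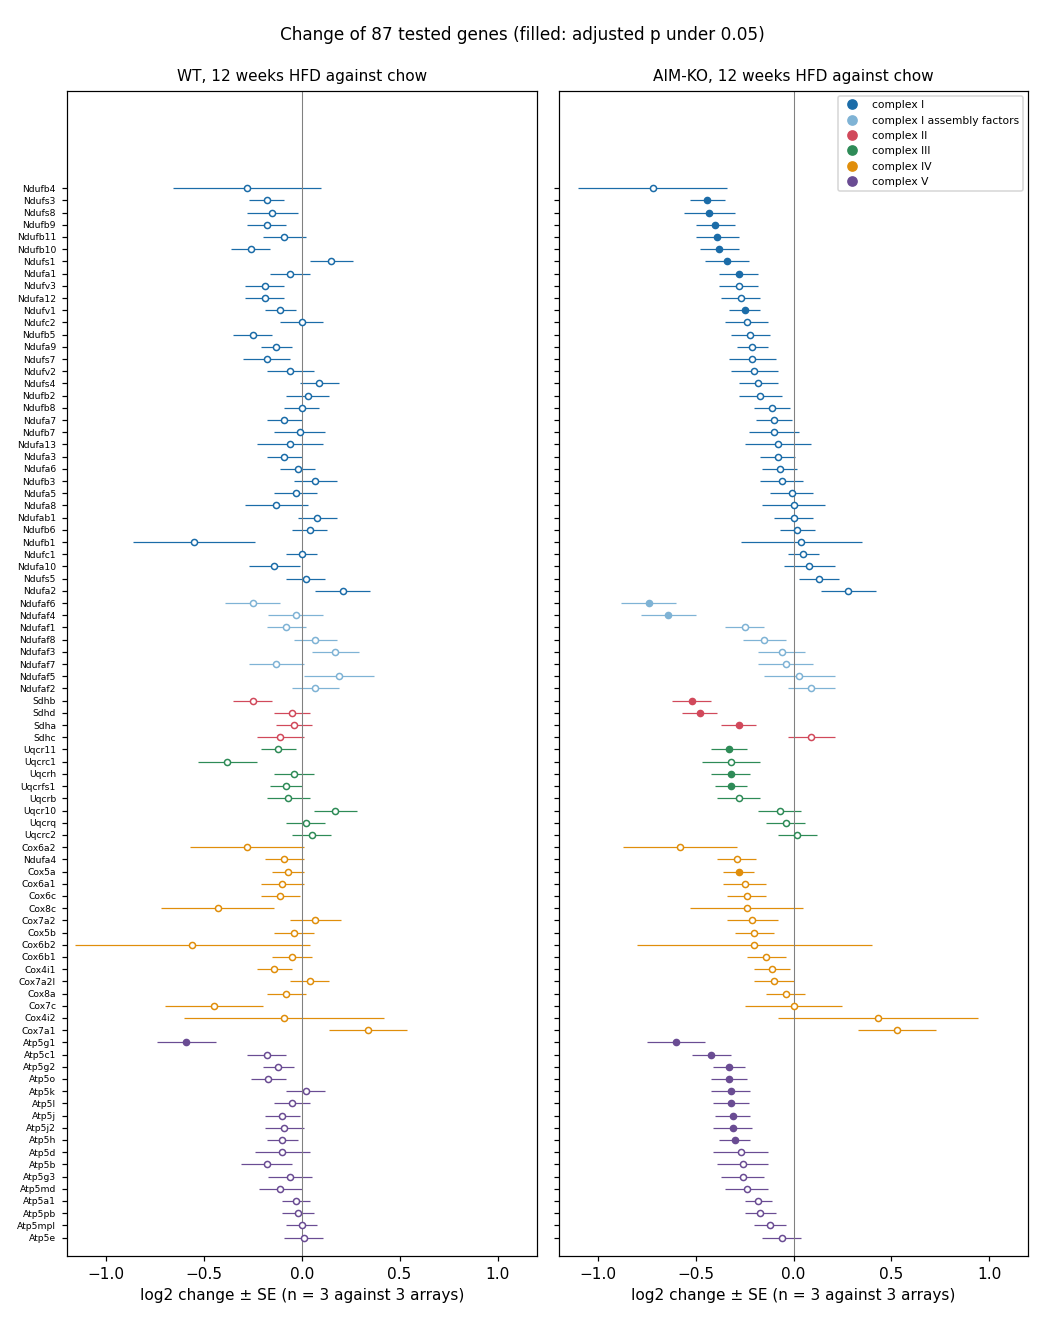
Log2 change ± SE from chow to 12 weeks of HFD (horizontal axis) for the 87 tested genes (vertical axis), ordered by the AIM-KO change within each complex, in WT and AIM-KO with 3 against 3 arrays each. Filled points passed an adjusted p of 0.05: 1 in WT and 26 in AIM-KO, all to the left of 0.

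Several of the 49 genes with more than 1 probe set past the filter allow a check on the probe set chosen. Among the 26 called genes, 15 had several, and in 12 of the 15 all probe sets had estimates of the same sign; the other 3 were Sdhd, Atp5g2 and Atp5j2. Of the 23 called genes with a promoter window, 16 (69.6%) held at least 1 of the 4 motifs, against 21 of the 51 others (41.2%). The 51 include Cox7b2 and Cox8b, which were not tested. The ETS motif was in 10 of the 23 (43.5%) and in 9 of the 51 (17.6%). The NRF1 motif was in 34.8% and 17.6%, YY1 in 8.7% and 9.8%, and ERR-alpha in 4.35% and 1.96%. Median GC content was 60% in windows of called genes and 58.7% in the others. The difference in motifs was not tested.

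In WT liver the change at 12 weeks was called in 1 of 87 genes (1.15%), against 5.12% of all genes in either direction and 1.63% called lower. That gene was Atp5g1, which read 1934.8, 2189.9 and 1945.8 on WT chow and 1370.7, 1221.8 and 1450.7 at 12 weeks. The groups did not overlap, and the change was -0.59 ± 0.15 (adjusted p = 0.028, limma), close to that in AIM-KO. The call was lost in 4 of the 6 fits without 1 array, where adjusted p ran from 0.068 to 0.12. Sdhb read 3340.3, 3838.6 and 3703.4 on WT chow and 2769.5, 3293.1 and 3124.6 at 12 weeks, without overlap, and its change of -0.25 ± 0.10 was not called (adjusted p = 0.17, limma). The median over the 87 genes was -0.08, against 0 over all genes tested.

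The difference of the 12 week effect between the genotypes was itself tested, and 0 of 87 genes were called, against 0.00681% of all genes; 5 had an unadjusted p under 0.05 with limma. The smallest adjusted p was that of Sdhd (difference -0.43 ± 0.12, interval -0.69 to -0.18, adjusted p = 0.31, limma). Sdhd read 1488.3, 1318.8 and 1309.8 on WT chow and 1283.3, 1281.4 and 1415 at 12 weeks, where the groups overlap. The median difference over the 87 genes was -0.14, against 0.05 over all genes, and -0.04 after quantile normalization. So the larger count in AIM-KO does not show that the diet effect differs between genotypes.

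Averaged over the genotypes, 24 genes were called lower and 1 higher at 12 weeks, against 22.5% of all genes called in either direction and 8.87% called lower. This comparison uses the same arrays as those within each genotype. Atp5g1 (-0.59 ± 0.11, adjusted p = 0.00053, limma) and Sdhb (-0.38 ± 0.07, adjusted p = 0.00061, limma) led it. The count was 13 after quantile normalization, 12 without AIM-KO HFD replicate 2, 14 without WT HFD replicate 1 and 16 without WT chow replicate 2. Uqcrc1, a core protein of complex III, was called here and not within either genotype at 12 weeks (-0.35 ± 0.10, adjusted p = 0.020, limma). The gene called higher was Cox7a1, the heart and muscle form of a complex IV subunit. It read 29.8, 40 and 25.7 on WT chow, 38.4, 22.7 and 24.9 on AIM-KO chow, 40.7, 38.7 and 42.6 in WT at 12 weeks and 39.4, 42.4 and 43.8 in AIM-KO at 12 weeks. The change was 0.44 ± 0.14 (adjusted p = 0.036, limma), on a probe set of low signal. The call was kept in 3 of 12 fits without 1 array and 8 of 12 other settings; it was lost after quantile normalization (0.39, adjusted p = 0.074) and with the actin term, and adjusted p ran from 0.0072 to 0.096 over all these fits.

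At 20 weeks in WT liver, 4 of 87 genes were called lower and 0 higher, against 14.4% of all genes called in either direction and 5.76% called lower. Atp5g1 read 1146, 1894.5 and 1105.2 at 20 weeks, against 1934.8, 2189.9 and 1945.8 on chow. Replicate 2, the array with high Xist and a low actin ratio, was near the chow arrays and the other arrays, with actin ratios of 3.64 and 4.22, were far below. The change was -0.59 ± 0.15 (adjusted p = 0.012, limma), -0.84 without replicate 2 and -0.36 with a term for the actin ratio, where the call was lost (adjusted p = 0.091).

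Uqcrc1 split in the same way, reading 1213, 1670.9 and 1296.8 at 20 weeks and 1869.7, 2094.7 and 1990.7 on chow. Its change was -0.52 ± 0.15 (adjusted p = 0.022, limma), and -0.29 with a term for the actin ratio (adjusted p = 0.16). At 12 weeks in WT, Uqcrc1 read 1717.9, 1117.2 and 1845.2, and the low array was again the one with a high actin ratio (3.79). The part of RNA integrity in these values was not tested beyond that term.

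Sdhb did not split by array. It read 2768.9, 2942.9 and 2878.3 in WT at 20 weeks, all below the chow arrays, a change of -0.34 ± 0.10 (adjusted p = 0.026, limma). The call was kept in only 2 of 6 fits without 1 array and in 10 of 12 other settings, with adjusted p up to 0.11 (limma). Ndufb10, an accessory subunit of the complex I membrane arm, read 1218.7, 1283.9 and 1361.8 against 1507.8, 1644.5 and 1613.7 on chow, a change of -0.30 ± 0.10 (adjusted p = 0.047, limma) that was lost in all 6 fits without 1 array. The count of 4 became 9 without WT replicate 2 at 20 weeks, 0 without WT chow replicate 2, and 1 without WT chow replicate 3 or without either of the WT replicates 1 and 3 at 20 weeks. The median over the 87 genes was -0.04 as deposited, against -0.01 over all genes tested, and 0.01 after quantile normalization.

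In AIM-KO liver at 20 weeks, where all 3 HFD arrays were high in Xist and the chow arrays were not, 1 of 87 genes was called (1.15%), against 6.85% of all genes in either direction and 2.62% called lower. It was Ndufaf4, which read 410.4, 518.2 and 476.1, all below the chow arrays, a change of -0.59 ± 0.14 (adjusted p = 0.014, limma). When the fit held a term for arrays high in Xist, the call was lost (adjusted p = 0.64, limma). Only WT at 20 weeks held arrays high and low in Xist, so the term rests on its replicate 2 against replicates 1 and 3. These also differed in actin ratio (2.54 against 3.64 and 4.22), so the term is not an adjustment for sex alone. The call was also lost without AIM-KO chow replicate 3 or AIM-KO HFD replicate 1. Ndufs3, called at 12 weeks, read 1993.8, 1824.6 and 1916.7 at 20 weeks. Sdhb read 3300.9, 3291.3 and 3609.1, overlapping with chow, a change of -0.17 ± 0.10 (adjusted p = 0.35, limma). Sdhd read 1754, 1707.6 and 1725.5, above every AIM-KO chow array. Atp5g1 read 2337.4, 2100.4 and 1995.6 and overlapped with chow. The median over the 87 genes was -0.05, against 0.04 over all genes tested, and turned to 0.04 after quantile normalization and 0.08 with the Xist term. On 17 genes (19.5%) the HFD arrays lay below all chow arrays, against 10.5% of all genes, and on 7 after quantile normalization, against 10.9%.

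**Figure D3:**
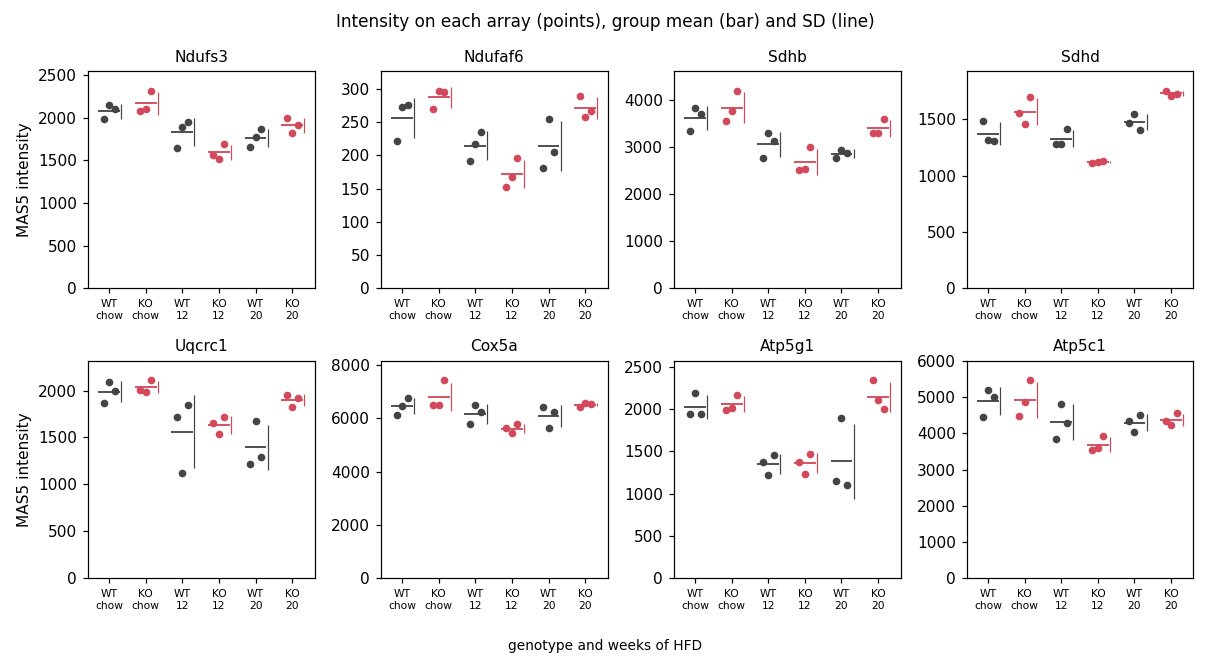
MAS5 intensity (vertical axis, from 0) of 8 genes on each array, by genotype and weeks of HFD (horizontal axis), WT in grey and AIM-KO (KO) in red. Points are arrays, horizontal bars group means and vertical lines the SD (n = 3); for Atp5g1 the WT array at 20 weeks that lies near chow read 1894.5 and the others 1146 and 1105.2.

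Direct comparisons of AIM-KO with WT called 0 of 87 genes on each diet. On chow 0.0272% of all genes were called, and 2 of the 87 had an unadjusted p under 0.05 with limma. At 12 weeks 0.0749% of all genes were called and 11 of the 87 had such a p. The median was -0.12, against 0.01 over all genes, and on 17 genes (19.5%) the AIM-KO arrays lay below all WT arrays, against 7.51% of all genes. After quantile normalization the median was -0.05 and the 17 genes became 11, against 7.99% of all genes; the median of the 71 genes of the brightest decile moved from -0.11 to -0.05. Ndufaf4, with 582.1, 570 and 687.4 in WT at 12 weeks and 438.6, 426.8 and 482 in AIM-KO, had the smallest adjusted p (-0.44 ± 0.14, interval -0.74 to -0.15, adjusted p = 0.30, limma).

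At 20 weeks 0.157% of all genes were called and 15 of the 87 had an unadjusted p under 0.05 with limma. AIM-KO arrays lay above all WT arrays for 19 genes (21.8%), against 7% of all genes. Every AIM-KO array here was high in Xist, but only replicate 2 of WT was. WT replicates 1 and 3 had high actin ratios (3.64 and 4.22). Genotype cannot be cleanly told apart from these differences. Atp5g1 had the smallest adjusted p (0.68 ± 0.15, interval 0.36 to 0.99, adjusted p = 0.077, limma), with WT replicate 2 the nearest WT array to AIM-KO. Ndufa10, an accessory subunit of complex I, read 1695.1, 2260.1 and 1480 in WT and 2424.2, 2431.3 and 2559.8 in AIM-KO (0.47 ± 0.13, adjusted p = 0.11, limma), and again WT replicate 2 was nearest. Without that array 8 genes were called, which leaves WT with only its arrays of high actin ratio and low Xist. The share of all genes called in that fit is not given here. The difference of the 20 week diet effect between genotypes called 0 of 87 genes, against 0% of all genes, with 3 at an unadjusted p under 0.05 and a smallest adjusted p of 0.33 (limma); without WT replicate 2 at 20 weeks the count was 3.

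**Figure D4:**
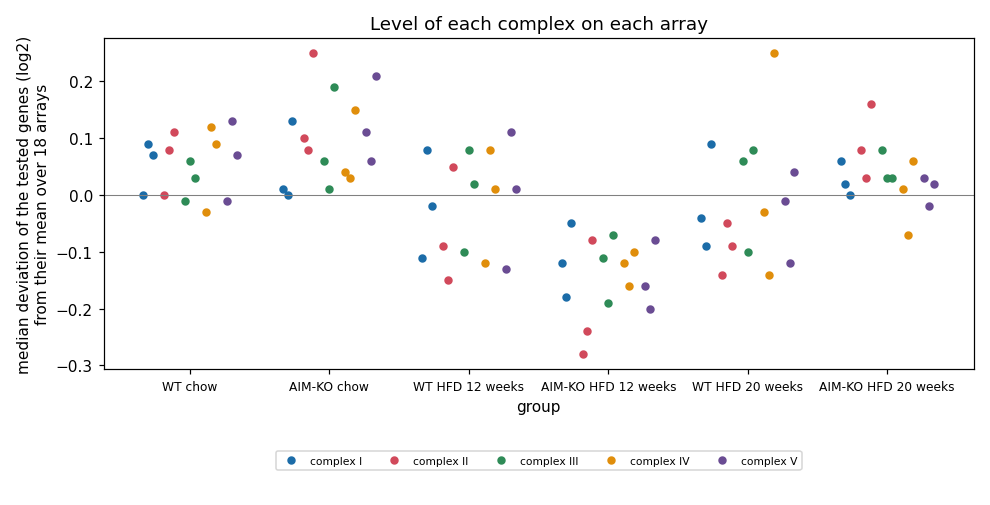
Median deviation of the tested genes of each complex from their means over the 18 arrays (vertical axis, log2) on each array, by group (horizontal axis); each point is 1 array and 1 complex. The 3 AIM-KO arrays at 12 weeks were below 0 for each complex, from -0.28 to -0.05, while the other HFD groups lay on both sides of 0.

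The tissue-specific forms of the complex IV subunits gave low signals, and signals of different probe sets are not on a common scale, so each is compared only with itself. Cox4i1, the widespread form, read 4932.3, 4903.1 and 4908 on AIM-KO chow and 4772.8, 4361.2 and 4498.4 at 12 weeks, below chow on each array (-0.11 ± 0.09, adjusted p = 0.44, limma). Cox4i2, its counterpart in lung, read 5.6, 7.8 and 21.5 on AIM-KO chow and 10.9, 20.4 and 14.6 at 12 weeks, with overlap. Cox6a2, the heart and muscle form, read 24.3, 27.1 and 34 on AIM-KO chow and 14.2, 21.2 and 18.7 at 12 weeks, below chow on each array, and was not called (-0.58 ± 0.29, adjusted p = 0.20, limma). Cox6b2 and Cox8c were not called in any of the 10 comparisons. Cox7c is not one of these tissue-specific forms, and its probe set also gave a low signal (mean 57.3). It had the smallest p of complex IV on chow between genotypes. Cox7c read 72.6, 79 and 80.7 in WT and 57.8, 60.1 and 34 in AIM-KO (-0.62 ± 0.25, adjusted p = 0.58, limma). Cox7a2l, counted with complex IV by its name, read 874.8, 1052.5 and 1001.5 on WT chow and 1144.8, 1207.5 and 1161 in WT at 20 weeks (0.27 ± 0.10, adjusted p = 0.086, limma). Of the genes that failed the filter, Ndufa4l2 read 2.1 to 30.3, and Cox7b2 and Cox8b stayed at or below 8.5 on every array.

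Other genes of the pathway were taken from lists. Their changes and calls are given as deposited only, without quantile normalization or the other settings. Of the 13 subunits encoded in mitochondrial DNA, only ND5, a core subunit of complex I, was matched. It read 7810.2, 8354.6 and 8262.3 on AIM-KO chow and 6844.8, 5790.4 and 6416.3 at 12 weeks (-0.36 ± 0.14, adjusted p = 0.092, limma). It was called in WT at 20 weeks, with 3959.8, 5889.5 and 6233.8 against 7283.3, 9614.5 and 8146.9 on chow (-0.66 ± 0.14, adjusted p = 0.0044, limma). In AIM-KO at 20 weeks the change was -0.48 ± 0.14 (adjusted p = 0.050, limma), just under the threshold.

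Among 17 regulators of mitochondrial biogenesis, 4 were called lower and 0 higher in AIM-KO at 12 weeks, with a median of -0.16. These are 23.5% of the list, near the 18% of all genes called in either direction; 6.76% of all genes were called lower. Polg2, a subunit of the mitochondrial DNA polymerase, changed by -0.69 ± 0.13 (adjusted p = 0.0011, limma). Ppargc1a, a coactivator of respiratory genes, read 163.2, 155.1 and 128.7 on AIM-KO chow and 105.6, 91.2 and 101.9 at 12 weeks, without overlap (-0.56 ± 0.19, adjusted p = 0.043, limma). Gabpa, a subunit of the ETS factor GABP, changed by -0.39 ± 0.13 (adjusted p = 0.042, limma). Polrmt, the mitochondrial RNA polymerase, was called in AIM-KO at 12 weeks (-0.32 ± 0.10, adjusted p = 0.043, limma) and in WT at 12 weeks (-0.54 ± 0.10, adjusted p = 0.0046, limma) and 20 weeks (-0.64 ± 0.10, adjusted p = 0.00044, limma). Ppargc1b, a related coactivator, read 289.1, 268.9 and 97.7 on AIM-KO chow and 164.2, 179.5 and 176.7 at 12 weeks, with overlap (-0.18 ± 0.36, adjusted p = 0.80, limma). Tfam, which packages mitochondrial DNA, had an estimate of 0 ± 0.10 in AIM-KO at 12 weeks.

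Electron carriers and enzymes that feed them gave 5 lower and 1 higher of 21 in AIM-KO at 12 weeks (28.6%, against 18% of all genes). Etfa and Etfb, the subunits of electron transfer flavoprotein, which are named after their values were seen, changed by -0.28 ± 0.08 (adjusted p = 0.020, limma) and -0.36 ± 0.09 (adjusted p = 0.011, limma). Gpd2, the mitochondrial glycerol phosphate dehydrogenase, rose by 0.89 ± 0.25 (adjusted p = 0.017, limma), and Cycs, cytochrome c, had an estimate of -0.01 ± 0.13. Of 37 further assembly factors 2 rose and 1 fell (8.11%, below the 18% of all genes): the copper carriers Cox19 (0.71 ± 0.14, adjusted p = 0.0017, limma) and Cox17 (0.39 ± 0.08, adjusted p = 0.0034, limma) rose and Surf1, needed for complex IV assembly, fell (-0.42 ± 0.11, adjusted p = 0.011, limma). Of 15 TCA cycle enzymes 4 rose and 3 fell (46.7%, against 18%), among them Suclg2 (0.50 ± 0.09, adjusted p = 0.00092, limma) and Fh1, fumarase (-0.66 ± 0.11, adjusted p = 0.00036, limma). Among 5 tested carriers of the inner membrane 3 were called (60%): Slc25a4 rose (0.66 ± 0.16, adjusted p = 0.0062, limma) and Slc25a3 and Slc25a5 fell.

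Other bright or mitochondrial groups moved beside these genes in the values as deposited. No quantile normalization or other setting is given for these lists. In AIM-KO at 12 weeks, where 18% of all genes were called, 18 of 76 mitochondrial ribosomal proteins were called lower and 4 higher (median -0.16), and 15 of 42 cytosolic ribosomal proteins lower and 0 higher (median -0.24). Of 11 hepatocyte markers 6 were called lower and 0 higher (median -0.36), among them Cps1 (-0.85 ± 0.14, adjusted p = 0.00027, limma). Of 8 macrophage markers 5 rose, and their summed intensity was 2362 to 2842 on AIM-KO chow and 3880 to 4914 at 12 weeks. Of 7 stellate cell markers 6 rose, with a summed intensity of 1700 to 2085 on chow and 3465 to 4124 at 12 weeks. Several of these lists also shifted where few respiratory chain genes were called. In WT at 20 weeks, 4 of the 87 and 14.4% of all genes were called. There 6 of 7 stellate cell and 5 of 8 macrophage markers rose, with summed intensities of 3873 to 6017 and 3948 to 4934. Of the 42 cytosolic ribosomal proteins 7 were called lower (16.7%), and of the 11 hepatocyte markers 1 (9.09%), near or below the share of all genes. Of the 76 mitochondrial ribosomal proteins 4 were called lower and 4 higher (10.5%). In AIM-KO at 20 weeks, 1 of the 87 and 6.85% of all genes were called. Of the 42 cytosolic ribosomal proteins 13 were called lower (31%, median -0.28), and of the 76 mitochondrial ribosomal proteins 1 (1.32%). Of the stellate cell markers 4 of 7 were called higher, of the macrophage markers 1 of 8, and of 11 hepatocyte markers 0 in either direction. The part of these shifts in the lower respiratory chain transcripts was not tested.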

How the data were processed

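The deposited values are intensity values of probe sets on a linear scale, made by the authors with MAS5 per the submitters' processing notes with no version named. Total RNA had been extracted with Trizol and made into biotin-labelled cRNA, per the labels' protocols. Each array had a 2% trimmed mean of 100, and medians were 15 to 21.1. Of 45101 probe sets, the platform annotation gave 1 gene to 34945, several to 932 and no gene to 9160. Symbols were updated through the entrez id where the reference table (GRCm38.p6) held it, for 34741 probe sets.

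Values were transformed to log2(intensity + 3.3), where 3.3 is the 20th percentile, so changes of dim genes are understated. Probe sets had to exceed the 40th percentile of the array on 3 arrays or more, and the brightest of a gene represented it. MAS5 scales each array by 1 factor, so a shift of bright against dim probe sets between arrays stays in the values. Groups follow the genotype and diet of the labels. limma 3.58.1 in R 4.3.3 fitted 6 group means on 18 arrays with an intensity trend (18.2 degrees of freedom), for 10 comparisons. Tests were 2-sided. The number of arrays limits the precision. The procedure was tested on simulated data.

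The genes and lists were chosen with earlier results of these data known. Genes to name were taken from Cd5l, the genes of complex II, the brightest of each complex, per complex and comparison up to 3 called genes with the largest change or the smallest p where none was called, isoform pairs of complex IV, genes that failed the filter and, per list, up to 3 called genes or that with the smallest p, with Ppargc1a, Ppargc1b, Tfam, Cycs and Cyc1. Alternatives were pseudocounts of 13.2 and 0.825, quantile normalization, no or a stricter dim filter, the mean of probe sets, no trend, a replicate block, array weights, a fit of the compared groups alone, terms for Xist-high arrays or the actin ratio, and leaving out each array.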

Additional observations from a re-analysis of the deposited data

How the results depend on the processing

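Counts of called respiratory chain genes out of 87 moved with single arrays, weighting and, at 12 weeks in AIM-KO and averaged over genotypes, with scaling. Shares of all genes called are given here for quantile normalization alone. With it 6.4% of all genes were called lower in AIM-KO at 12 weeks, against 6.76% as deposited. Averaged over genotypes at 12 weeks these shares were 8.83% and 8.87%. For the other settings the counts alone do not separate a general rise or fall of calls from one in these genes. In AIM-KO at 12 weeks the 26 calls became 10 with quantile normalization, 14 without the intensity trend, 41 with array weights and 9 to 22 without 1 array (9 without AIM-KO HFD replicate 2, 11 without AIM-KO chow replicate 3, 13 without AIM-KO HFD replicate 1). In all, 4 of the 26 (Ndufs3, Sdhb, Ndufaf4 and Ndufaf6) were kept in every setting and fit. Averaged over genotypes at 12 weeks the 25 calls became 13 with quantile normalization, 39 with array weights and 12 to 30 without 1 array (12 without AIM-KO HFD replicate 2, 14 without WT HFD replicate 1, 16 without WT chow replicate 2).

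In WT at 12 weeks the 1 call became 0 without the trend and 0 to 1 without 1 array (0 without WT chow replicate 2 or 3 or WT HFD replicate 1 or 2). In WT at 20 weeks the 4 calls became 1 without the trend, 11 with array weights, 1 with only the groups compared, 9 with the Xist term, 2 with the actin term and 0 to 9 without 1 array. In AIM-KO at 20 weeks the 1 call became 3 with array weights, 0 with only the groups compared, 0 with the Xist term and 0 to 2 without 1 array (2 without AIM-KO chow replicate 1, 0 without AIM-KO chow replicate 3 or AIM-KO HFD replicate 1). AIM-KO against WT at 20 weeks gave 6 with array weights and 0 to 8 without 1 array, and the difference of the 20 week effect 1 with array weights and 0 to 3 without 1 array (8 and 3 without WT HFD replicate 2).

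Medians over the 87 genes moved with quantile normalization to -0.09 (AIM-KO, 12 weeks), 0.04 (AIM-KO, 20 weeks), -0.05 (averaged, 12 weeks) and -0.04 (difference at 12 weeks). With the Xist term they were 0.08 (AIM-KO, 20 weeks), 0.11 (AIM-KO against WT, 20 weeks) and 0.10 (difference at 20 weeks), and with the actin term -0.12 (WT, 20 weeks). Only WT at 20 weeks held arrays both high and low in Xist, so the Xist term was set by that group alone. Cox5a, averaged over genotypes at 12 weeks, turned from -0.17 to 0.01 with quantile normalization (adjusted p = 0.92, limma). The causes of these moves were not tested.

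With the replicate block 26 genes were called in AIM-KO at 12 weeks, 4 in WT at 20 weeks and 26 averaged over genotypes. Arrays of the same number in different groups correlated by -0.09 to 0.23, so the numbers were not taken as pairs. Signal over background limits the dimmest genes: Ndufa4l2, Cox7b2 and Cox8b could not be tested.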
